A study of Mus musculus with 31 samples.

Results

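The vesicular glutamate and zinc transporters are 4 genes: Slc17a7, Slc17a6 and Slc17a8, which encode the vesicular glutamate transporters VGLUT1, VGLUT2 and VGLUT3, and Slc30a3, which encodes the vesicular zinc transporter ZnT3. They were taken by name, through the RefSeq identifiers that the scanner files give their probes, and make up 4 of the 30165 features tested on the array, 17897 of which carry a gene symbol. Together they have 5 probes, of which Slc17a8 has 2, and each gene was read from its brightest probe. The arrays came from adult female mice of 12 weeks, either DBA2/J (DBA) or C57BL/6J (C57), with RNA from the nucleus accumbens (NAc) or the medial prefrontal cortex (mPFC). After repeated cross-fostering (RCF), pups had been given to a new dam each day from postnatal day 1 to day 4, whereas control litters were lifted out and put back with their own mother. All mice were weaned on day 28 and are labelled as not transgenic, and at most 2 came from 1 cage or litter. The 8 groups, counted as samples after near-identical arrays were averaged, were DBA NAc RCF (4) and control (4), DBA mPFC RCF (3) and control (3), C57 NAc RCF (4) and control (2), and C57 mPFC RCF (4) and control (3). The labels do not say whether an NAc and an mPFC sample came from 1 animal, and each sample is a piece of tissue with many cell types.

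Vesicular glutamate transporters use the proton gradient of the synaptic vesicle to fill it with glutamate, and a neuron that makes one can release glutamate. VGLUT1 is the main form in excitatory neurons of the cortex, VGLUT2 in those of the thalamus, hypothalamus and brainstem, and VGLUT3 is found in scattered neurons better known for another transmitter, among them cholinergic interneurons of the striatum and cholecystokinin interneurons of the cortex. ZnT3 loads zinc into vesicles of part of the cortical glutamate neurons. The NAc belongs to the striatum, where most neurons release GABA and where glutamate arrives on axons whose cell bodies, and with them most of the messenger RNA, lie elsewhere.

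Levels are given in array units, the log2 signal from which the 75th percentile of its array was taken off, so that 1 unit is a factor of 2 and 0 is the brightness that 75% of the probes do not exceed. Levels of different probes cannot be set against each other. On single arrays 58.6% to 81.9% of probes stood well above background, and the small number of samples limits the precision. Of 45 pairs of arrays within a group, 4 differed by no more than spots of 1 array do, and each of these was counted as 1 sample, which left 27 samples from 31 arrays. Markers that hold none of the 4 transporters placed 6 of the 27 against their label. By striatal minus cortical markers, whose midpoint was 3.19, these were C57 NAc RCF 1 (0.088), C57 NAc control 1 and 3 (−0.34), C57 mPFC RCF 1 (5.22) and C57 mPFC control 3 (4.67), and by strain markers they were DBA NAc control 4 (7.26) and DBA mPFC control 1 (5.35), against 10.68 to 12.48 in the other DBA samples. DBA mPFC control 1 also had Xist, the transcript of the inactive X chromosome in females, at −6.03, against −0.43 to 1.35 in all other samples. They are called the samples in doubt, and results that rest on them are given with and without them. Each scanner file was given the sample whose column in the deposited value matrix it correlates with best, which moved 27 of the 31 files to another group than the one they are listed under. Samples whose files are listed as DBA control had strain scores of 5.48 to 7.65, as C57 samples do after the matching. Those listed as C57 RCF had scores of 10.68 to 12.05, as DBA samples do, apart from DBA mPFC control 1. For these files the strain markers go with the matched labels, and for single files the assignment was not tested further. It decides the region and RCF results: for NAc minus mPFC in DBA 17061 features were called after the matching, against 0 with the files as listed. With the files as listed, Slc17a7 differs between NAc and mPFC by 0.20 in DBA and 0.35 in C57, and Slc30a3 by −0.60 and 0.28, none of them called. After the matching each of the 4 slides held 1 strain and 1 region, so slide cannot be told apart from strain or region, while RCF and control samples of a group shared a slide.

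Slc17a7 and Slc30a3 were both called between the regions of DBA mice, and the 250 bases before their annotated starts are shown so that their letters can be compared. They are RefSeq sequences of GRCm38.p6, written 5′ to 3′ on the strand of the gene, with the letters GGGCGG, on either strand, in capitals. Slc17a7 starts on the plus strand, with chr7:45163671-45163920 before its start, and Slc30a3 has 2 annotated starts on the minus strand, with chr5:31093528-31093777 before the inner one and chr5:31108245-31108494 before the outer one.
Slc17a7: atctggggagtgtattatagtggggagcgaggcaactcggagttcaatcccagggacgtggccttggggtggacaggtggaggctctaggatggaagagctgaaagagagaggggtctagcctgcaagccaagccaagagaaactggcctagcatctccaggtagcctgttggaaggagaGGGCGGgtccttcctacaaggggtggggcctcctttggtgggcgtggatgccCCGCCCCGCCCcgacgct
Slc30a3, inner start: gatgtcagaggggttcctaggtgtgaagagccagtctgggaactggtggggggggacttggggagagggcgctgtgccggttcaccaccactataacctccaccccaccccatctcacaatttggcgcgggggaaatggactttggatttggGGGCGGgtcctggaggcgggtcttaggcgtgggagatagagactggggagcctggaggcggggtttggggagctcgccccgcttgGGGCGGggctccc
Slc30a3, outer start: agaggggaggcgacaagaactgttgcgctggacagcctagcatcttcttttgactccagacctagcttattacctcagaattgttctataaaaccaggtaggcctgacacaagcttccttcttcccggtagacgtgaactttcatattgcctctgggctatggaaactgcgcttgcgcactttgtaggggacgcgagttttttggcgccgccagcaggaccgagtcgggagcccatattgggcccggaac
GGGCGG was found 3 times before the Slc17a7 start, 2 of them overlapping, and 2 times before the inner Slc30a3 start, but not before the outer one. Of 32851 annotated starts in the table, 32.7% have it in the same 250 bases. CAGATG, searched on both strands and held by 14.4% of all starts, was in none of these 3 windows, and TATAAA, held by 12.4%, was in the outer Slc30a3 window, once. The windows were 61.2%, 64.8% and 53.2% G or C, in the order shown, against a median of 52.4% over all starts.

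Slc17a7 fell in the NAc of DBA mice to levels far below those of the DBA mPFC. In the DBA NAc it read −5.16, −1.36, −5.03 and 0.79 after RCF and −4.03, −7.69, −5.81 and −2.73 in controls, whereas in the DBA mPFC it read 3.20, 3.14 and 3.36 after RCF and 2.78, 3.102 and 2.82 in controls. The regions did not overlap: the highest DBA NAc sample lay at 0.79 and the lowest DBA mPFC sample at 2.78. How many of all features separate the regions or the strains in this way was not counted, here or below. NAc minus mPFC in DBA was −6.94 ± 1.06 (standard error, limma, adjusted p = 1.17e-05), and 56.6% of all features were called in this comparison. The gene was well above background on every array except 2 of the 4 in the DBA NAc control group.

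In C57 mice the same direction was seen, but whether it was called depended on the samples in doubt and on the processing. In the C57 NAc, Slc17a7 read 2.18, −3.85, −2.84 and −2.99 after RCF and 1.58 and −4.31 in controls, and the 2 values above 0 belong to the NAc samples whose markers were cortical. In the C57 mPFC it read −0.57, 2.39, 2.09 and 2.38 after RCF and 2.27, 2.30 and 0.93 in controls, and the 2 lowest belong to the mPFC samples whose markers were striatal. The C57 regions overlapped with these 4 samples, and without them the NAc lay between −4.31 and −2.84 and the mPFC between 2.09 and 2.39. NAc minus mPFC in C57 was −3.32 ± 1.13 with all samples (limma, adjusted p = 0.0640), where 9.57% of features were called. With no sample left out it passed under normexp background correction (−2.74), with 31 separate arrays (−3.32) and with a replicate block on them (−3.39). It also passed when any 1 of C57 NAc control 1 and 3 (−4.79), C57 NAc RCF 1 (−3.997) or C57 mPFC RCF 1 (−3.68) was left out, and was −1.85 without C57 NAc control 2 and 4. It was −6.05 ± 1.02 without the 6 samples in doubt (limma, adjusted p = 0.000337), where 25.5% were called. Markers of cortical neurons and Slc17a7 move together, so this second value is not independent of the choice of samples.

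Slc30a3 followed Slc17a7. In the DBA NAc it read −5.94, −3.02, −5.21 and −1.72 after RCF and −4.97, −6.00, −5.89 and −4.72 in controls, against 1.05, 0.90 and 0.75 after RCF and 0.031, 0.82 and 1.10 in controls in the DBA mPFC. Again the DBA regions did not overlap, and the difference was −5.46 ± 0.95 (limma, adjusted p = 5.46e-05). In the C57 NAc it read 0.14, −6.09, −5.61 and −6.82 after RCF and 0.12 and −6.25 in controls, and in the C57 mPFC −3.14, −0.43, −1.08 and −1.33 after RCF and −0.96, −0.61 and −2.21 in controls. The high NAc values and the lowest mPFC values were those of the same 4 samples as for Slc17a7. The C57 difference was −2.45 ± 1.02 with all samples (limma, adjusted p = 0.124) and −5.35 ± 0.65 without those in doubt (limma, adjusted p = 1.92e-05), where the choice of samples by cortical markers again bears on the value. On all 15 mPFC arrays Slc30a3 was well above background. In the NAc it was so on 3 of 4 and 2 of 4 arrays of DBA RCF and control mice and on 1 of 4 and 2 of 4 arrays of C57 RCF and control mice, so its low NAc levels rest on spots close to background.

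**Figure D1:**
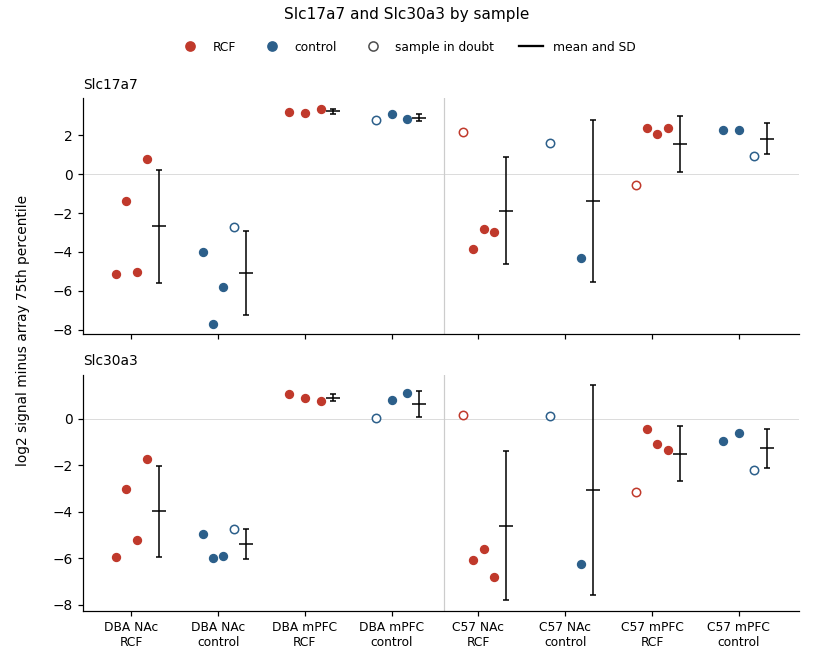
Slc17a7 (top) and Slc30a3 (bottom) in each sample, in array units on a log2 scale, for the 8 groups, with the group mean and SD beside the points. Open circles are samples in doubt. The DBA NAc samples lie below all DBA mPFC samples for both genes, and in C57 mice the 2 NAc samples at the level of the mPFC are open circles.

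The fall of Slc17a7 and Slc30a3 was accompanied by that of other cortical genes. The striatal minus cortical marker score ranged from 4.66 to 7.43 in the 11 NAc samples not in doubt and from −0.94 to 1.07 in the 10 mPFC samples not in doubt. Among the NAc samples of DBA mice the 2 with the highest Slc17a7, RCF 4 at 0.79 and RCF 2 at −1.36, also had the highest mean of the 13 cortical excitatory neuron markers, −0.68 and −1.87, against −3.62 to −2.60 in the other DBA NAc samples. All 13 cortical markers fell in the DBA NAc, with a median of −4.17 against −0.12 over all features; Emx1 fell by 4.56 and Fezf2 by 4.24 (limma), and both are transcription factors of cortical projection neurons. All 18 striatal projection neuron markers tested rose in the DBA NAc, with a median of 2.76, among them the homeobox gene Six3 (5.64) and the enkephalin gene Penk (3.52). In C57, with all samples, 2 of the 13 cortical markers fell (Neurod2 and Tbr1, named after their values were seen) and 0 of the 18 striatal markers passed, and without the samples in doubt 13 fell and 17 rose, which is a description, since these markers chose 4 of the samples left out. Over all features the shares called were 56.6% in DBA, 9.57% in C57 with all samples and 25.5% in C57 without those in doubt. Fewer cortical neurons in the tissue and less RNA in each of them cannot be told apart in these samples, and the part that the sampled tissue plays in the transporter differences was not tested.

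**Figure D2:**
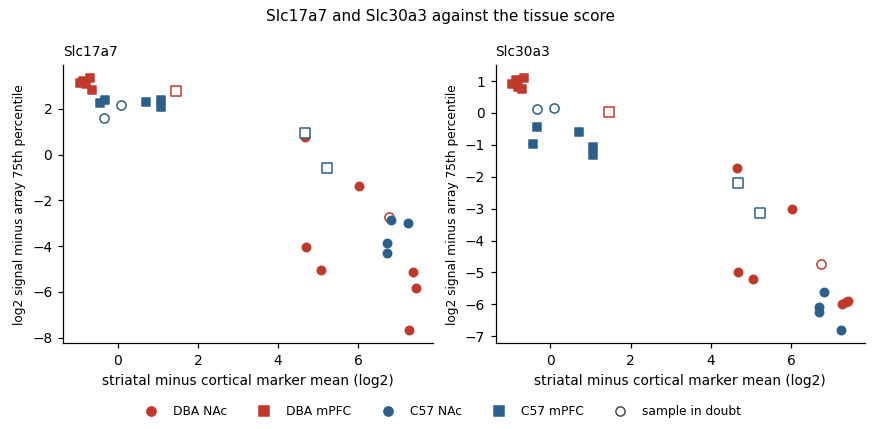
Slc17a7 (left) and Slc30a3 (right) of each of the 27 samples against the mean of striatal minus the mean of cortical markers, both on the log2 scale. Circles are NAc and squares mPFC samples, red DBA and blue C57, and open symbols are samples in doubt. NAc samples not in doubt have scores of 4.66 or more and mPFC samples not in doubt of 1.07 or less, and both transporters are lower at high scores.

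Within a region these genes also varied together. Over the 14 NAc samples the correlation of Slc17a7 and Slc30a3 was r = 0.88 (Spearman 0.71), it was 0.74 without the 2 samples farthest from the median of Slc17a7 and 0.74 over the 11 samples not in doubt. Over the 13 mPFC samples it was 0.92 (Spearman 0.88), and 0.90 without the 2 farthest. The samples of a region come from both strains, with each strain on its own slide. These values therefore also take in differences between the strains and slides, and are descriptions. By likeness over all 27 samples after group means were subtracted, the closest genes to Slc17a7 were Neurod6 (r = 0.97), Neurod2 (0.96) and Prdm8 (0.94), and those to Slc30a3 were Emx1 (0.99), Cck (0.98) and Wnt9a (0.98). With group means kept, they were Neurod6, Neurod2 and Prdm8 for Slc17a7 (0.97 to 0.99) and Emx1, Stx1a and Sel1l3 for Slc30a3 (0.97 to 0.98). All these values take in the samples in doubt. In the mPFC, Slc17a7 and Neurod6 correlated at r = 0.83 (Spearman 0.47), but at 0.14 without the 2 farthest and 0.17 over the 10 samples not in doubt. In the NAc they correlated at 0.98 over the 11 not in doubt. Slc30a3 and Emx1 correlated at 0.96 in the NAc and 0.87 in the mPFC without those in doubt. Neurod6 and Neurod2 are transcription factors of excitatory neurons, and Cck encodes the peptide cholecystokinin.

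Strain differences of Slc17a7 and Slc30a3 did not pass in either region in the fit of all 8 groups, but some passed in the mPFC under other settings. DBA minus C57 in the mPFC was 1.36 ± 1.10 for Slc17a7 (limma, adjusted p = 0.316) and 2.15 ± 0.98 for Slc30a3 (limma, adjusted p = 0.0751), where 48.0% of features were called. Every DBA mPFC sample lay above every C57 mPFC sample for both genes: the lowest DBA values were 2.78 and 0.031, and the highest C57 values 2.39 and −0.43. The share of all features that separate the strains like this was not counted. In the mPFC both passed when only the groups compared were fitted (1.36 ± 0.44 and 2.15 ± 0.40, limma, adjusted p = 0.0202 and 0.000781), and Slc30a3 passed with normexp (1.97) as well as after leaving out the samples in doubt (1.79 ± 0.57, limma, adjusted p = 0.0175). With the files as listed both were called the other way (−5.04 and −3.51). In the NAc, where 31.8% of features were called, Slc17a7 differed between DBA and C57 by −2.26 ± 1.10 (limma, adjusted p = 0.120) and Slc30a3 by −0.86 ± 0.98 (limma, adjusted p = 0.530), and without the samples in doubt by −0.50 ± 0.96 and 1.41 ± 0.62. Slc17a7 passed there without C57 NAc control 2 and 4 (−3.73) or DBA NAc RCF 4 (−2.84), and was −0.79 without C57 NAc control 1 and 3. The difference of the region differences, DBA minus C57, was −3.62 ± 1.55 for Slc17a7 (limma, adjusted p = 0.0776) and −3.01 ± 1.39 for Slc30a3 (limma, adjusted p = 0.102), where 31.3% of features were called. It passed for Slc17a7 without C57 NAc control 2 and 4 (−5.10) or DBA NAc RCF 4 (−4.20) and with 31 separate arrays (−3.64), and for Slc30a3 without C57 NAc control 2 and 4 (−4.60) and with normexp (−2.66). Without C57 NAc control 1 and 3 it was −2.15 for Slc17a7 and −1.42 for Slc30a3, neither called. It was −1.31 ± 1.31 and −0.38 ± 0.84 without the samples in doubt.

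In the order of the group means, Slc17a7 was highest in DBA mPFC RCF (3.23 ± 0.11, SD, n = 3) and DBA mPFC control (2.90 ± 0.18, SD, n = 3), followed by C57 mPFC control (1.84 ± 0.78, SD, n = 3), C57 mPFC RCF (1.57 ± 1.44, SD, n = 4), C57 NAc control (−1.36 ± 4.17, SD, n = 2), C57 NAc RCF (−1.88 ± 2.74, SD, n = 4), DBA NAc RCF (−2.69 ± 2.91, SD, n = 4) and DBA NAc control (−5.06 ± 2.16, SD, n = 4). The gaps between DBA mPFC RCF and DBA mPFC control and between DBA and C57 mPFC controls were larger than the larger SD of the pair, and the gaps between all later neighbours were smaller. For Slc30a3 the order was DBA mPFC RCF (0.90 ± 0.15, SD, n = 3), DBA mPFC control (0.65 ± 0.55, SD, n = 3), C57 mPFC control (−1.26 ± 0.84, SD, n = 3), C57 mPFC RCF (−1.50 ± 1.16, SD, n = 4), C57 NAc control (−3.07 ± 4.50, SD, n = 2), DBA NAc RCF (−3.97 ± 1.95, SD, n = 4), C57 NAc RCF (−4.59 ± 3.20, SD, n = 4) and DBA NAc control (−5.40 ± 0.64, SD, n = 4). Only the gap between DBA and C57 mPFC controls was larger than the larger SD of its pair.

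Slc17a6, the transporter of subcortical glutamate neurons, did not share the fall in the NAc. In the DBA NAc it read 0.092, −0.31, 1.64 and −0.26 after RCF and 1.65, 0.81, 0.0020 and −0.41 in controls, against −0.18, −0.56 and 0.23 after RCF and −0.25, −0.53 and −0.67 in controls in the DBA mPFC. The regions overlapped, and 3 DBA NAc samples, RCF 3 and controls 1 and 2, lay above every other sample of the 27. NAc minus mPFC in DBA was 0.73 ± 0.32 (limma, adjusted p = 0.0551), which passed without the samples in doubt at 0.94 ± 0.34 (limma, adjusted p = 0.0251), where 56.7% of features were called. It also passed when any 1 of DBA mPFC RCF 4, DBA NAc RCF 2, RCF 4, control 3 or control 4 was left out (0.81 to 0.88). In C57 the difference was 0.43 ± 0.34 (limma, adjusted p = 0.446), with C57 NAc samples between −0.80 and 0.20 and C57 mPFC samples between −1.16 and 0.21. DBA minus C57 was 0.62 ± 0.33 in the NAc (limma, adjusted p = 0.157) and 0.31 ± 0.33 in the mPFC (limma, adjusted p = 0.448), and the region differences of the strains differed by 0.30 ± 0.47 (limma, adjusted p = 0.646). Group means ran from 0.51 ± 0.92 (SD, n = 4) in DBA NAc controls to −0.73 ± 0.41 (SD, n = 3) in C57 mPFC controls, and no pair of neighbours in that order was separated by more than the larger SD of the pair.

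The 2 highest Slc17a6 samples also stood apart in other genes. DBA NAc RCF 3 and control 1 had the highest mean of the septal and ventral forebrain markers, 1.15 and 1.05, against at most 0.53 in every other sample. Their mean of striatal markers was 2.16 and 2.09, against 3.63 to 4.31 in the other NAc samples apart from the 2 with cortical markers. The part of the dissected territory in their Slc17a6 was not tested. The genes most like Slc17a6 over the 27 samples after group means were subtracted were Macrod1 (r = 0.91), Cntnap4 (0.90) and Bcat1 (0.90), and with group means kept Macrod1 (0.90), Bcat1 (0.88) and Ctbp2 (0.88).

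Slc17a8 was read differently by its 2 probes. The brighter probe was well above background on all 31 arrays, and the dimmer one, looked at after its values were seen, on 29 of 31, with 3 of 4 in each C57 NAc group. With the brighter probe NAc minus mPFC was 0.015 ± 0.24 in DBA (limma, adjusted p = 0.962) and 0.20 ± 0.26 in C57 (limma, adjusted p = 0.659). With the dimmer probe it was 1.93 ± 0.42 in DBA (limma, adjusted p = 0.000581) and 0.49 ± 0.45 in C57 (limma, adjusted p = 0.514), and in C57 it passed without the samples in doubt, at 1.67 ± 0.34 (limma, adjusted p = 0.00185), a value that their choice by region markers bears on. Both probes carry 1 and the same RefSeq identifier, and which of them follows the transcript was not tested.

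On the dimmer probe the DBA NAc samples read −2.26, −3.01, −2.51 and −1.58 after RCF and −2.39, −2.70, −2.85 and −2.81 in controls, all above the DBA mPFC samples, which read −4.29, −3.45 and −4.25 after RCF and −5.05, −4.42 and −5.19 in controls. In C57 NAc it read −5.67, −2.75, −2.65 and −2.88 after RCF and −4.97 and −2.85 in controls, and the 2 low samples were those with cortical markers. C57 mPFC samples read −2.97, −4.76, −3.25 and −4.49 after RCF and −4.52, −5.03 and −4.01 in controls, the highest being the sample RCF 1 with striatal markers. The 7 cholinergic interneuron markers went the same way: all 7 rose in the DBA NAc, with a median of 5.23, and in C57 0 passed with all samples and 7 without those in doubt, a number that the choice of those samples by region markers bears on. Among them are the homeobox gene Lhx8 (9.84 in DBA, well above background on 8 of 8 NAc arrays and 1 of 8 mPFC arrays), the acetylcholine synthesis gene Chat (2.20) and Slc18a3, the vesicular acetylcholine transporter (3.79). Over the 14 NAc samples the dimmer probe and Slc18a3 correlated at r = 0.90 (Spearman 0.42), but this rests on the 2 NAc samples with cortical markers, since r was 0.025 without the 2 samples farthest from the median of the probe and −0.029 over the 11 samples not in doubt.

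The brighter Slc17a8 probe separated the strains in the mPFC. It read −1.09, −1.17 and −0.93 after RCF and −1.17, −1.13 and −0.98 in controls in the DBA mPFC, against −1.88, −1.48, −1.76 and −2.17 after RCF and −1.62, −1.48 and −2.09 in controls in the C57 mPFC. The strains did not overlap, for which no share over all features was counted, and the difference was 0.69 ± 0.25 (limma, adjusted p = 0.0244). It did not pass with normexp background correction (0.44), without the samples in doubt (0.61), with the mean of both probes (0.22), with the scanner files as listed (0.21), or when C57 mPFC control 3 (0.60), DBA mPFC control 3 (0.67) or DBA mPFC RCF 4 (0.66) was left out. The dimmer probe gave −0.25 ± 0.44 for the same comparison (limma, adjusted p = 0.664). In the NAc, DBA minus C57 was 0.51 ± 0.25 on the brighter probe (limma, adjusted p = 0.118). It passed without DBA NAc RCF 4 (0.67) or control 4 (0.64), with 31 separate arrays (0.51, limma, adjusted p = 0.0489), with the replicate block on them (0.51, limma, adjusted p = 0.0460) and with the mean of both probes (0.85). On the dimmer probe it was 1.19 ± 0.44 (limma, adjusted p = 0.0423). This did not pass without the samples in doubt (0.31 ± 0.32), with normexp (0.66), with only the groups compared (1.19, limma, adjusted p = 0.0882) or when any 1 of 8 samples was left out (0.66 to 1.22). The region difference of the dimmer probe differed between the strains by 1.43 ± 0.62 (limma, adjusted p = 0.0807), which passed with normexp (1.05), quantile normalization (1.83), 31 separate arrays (1.41), the replicate block (1.46) and without C57 NAc control 2 and 4 (1.97).

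Group means of the brighter probe ran from −0.91 ± 0.67 (SD, n = 4) in DBA NAc controls to −1.82 ± 0.28 (SD, n = 4) in C57 mPFC RCF samples, all 4 DBA groups above all 4 C57 groups, and no neighbours were separated by more than the larger SD of the pair. Over the 14 NAc samples it varied with Slc17a6 at r = 0.92 (Spearman 0.82), at 0.75 without the 2 samples farthest from the median of Slc17a6 and at 0.91 over the 11 not in doubt. Over the 13 mPFC samples r was 0.29 (Spearman 0.39), 0.69 without the 2 farthest and −0.12 over the 10 not in doubt. Here too both strains and their slides are pooled. The dimmer probe did not show this likeness, with r = 0.16 to Slc17a6 and 0.064 to the brighter probe in the NAc. Closest to the brighter probe after group means were subtracted were Nudt17 (r = 0.94), Nccrp1 (0.91) and Fndc10 (0.91), and with group means kept Nudt17 (0.92), Nccrp1 (0.89) and Podxl2 (0.89).

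**Figure D3:**
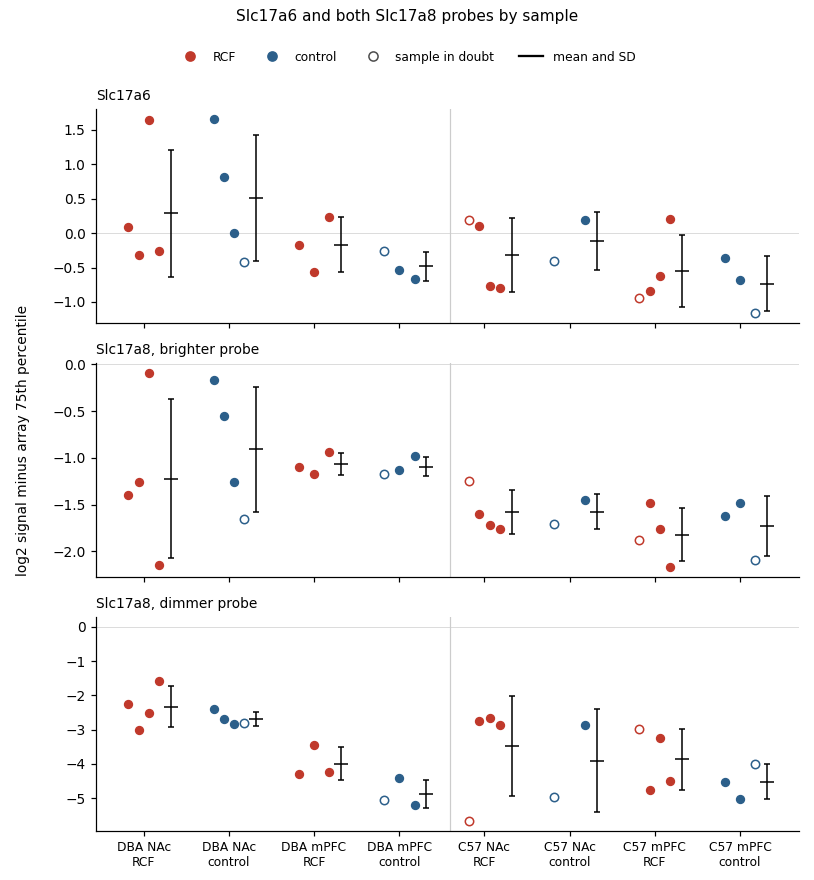
Slc17a6 and both Slc17a8 probes in each sample, in array units on a log2 scale, for the 8 groups, with the group mean and SD beside the points; open circles are samples in doubt. The same DBA NAc samples are highest for Slc17a6 and the brighter Slc17a8 probe, while on the dimmer probe all DBA NAc samples lie above all DBA mPFC samples.

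RCF was the treatment the study set out to compare, and none of the 4 genes was called between RCF and control mice in either region of either strain after the matching of files to samples. With the files as listed Slc17a8 was called in the C57 NAc (0.85, limma, adjusted p = 0.0190), and 5606, 6368, 11462 and 8427 features were called in the DBA NAc, DBA mPFC, C57 NAc and C57 mPFC. In that listing RCF and control samples of a strain were on different slides. By strain markers most samples listed as C57 RCF were then DBA, and those listed as DBA control were C57. After the matching the shares of all features called were 0.0% in the DBA NAc, 0.0% in the DBA mPFC, 0.607% in the C57 NAc and 0.0% in the C57 mPFC, while 609, 477, 3341 and 741 features had an unadjusted p below 0.05. The largest difference was that of Slc17a7 in the DBA NAc, 2.37 ± 1.39 (limma, adjusted p = 1.0), from −2.69 ± 2.91 in RCF samples and −5.06 ± 2.16 in controls (SD, n = 4 each), whose values overlap. It was 1.22 without RCF 4, 3.20 without RCF 1 and 3.15 without control 4, the sample in doubt of these groups. RCF 4 and RCF 2 are the 2 samples with the highest cortical markers of the group, and with the tissue score as a covariate the difference was 1.85. Slc30a3 in the same group differed by 1.42 ± 1.24, Slc17a6 by −0.22 ± 0.42 and Slc17a8 by −0.31 ± 0.31 (limma, adjusted p = 1.0 for each).

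In the DBA mPFC the differences after RCF were 0.33 ± 1.60 for Slc17a7, 0.25 ± 1.44 for Slc30a3, 0.32 ± 0.48 for Slc17a6 and 0.029 ± 0.36 for Slc17a8. In the C57 NAc they were −0.51 ± 1.70, −1.53 ± 1.52, −0.21 ± 0.51 and −0.0068 ± 0.38 for the same genes, and each C57 NAc group holds 1 sample with cortical markers. In the C57 mPFC they were −0.26 ± 1.498, −0.24 ± 1.34, 0.18 ± 0.45 and −0.092 ± 0.34, and again each group holds 1 sample in doubt. Without the samples in doubt the C57 values were 1.08, 0.079, −0.67 and −0.25 in the NAc and −0.00089, −0.16, 0.10 and −0.26 in the mPFC, and those in the DBA mPFC 0.27, −0.065, 0.43 and −0.010, again with no call. The dimmer Slc17a8 probe differed by 0.35 ± 0.55, 0.89 ± 0.64, 0.43 ± 0.68 and 0.65 ± 0.60 in DBA NAc, DBA mPFC, C57 NAc and C57 mPFC, with no call. For Slc17a7 the standard errors of 1.39 to 1.70 leave differences of a few array units undetectable, whereas those of Slc17a6 and Slc17a8 are between 0.31 and 0.51.

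RCF differences did not differ between the strains beyond the error for any of the 4 genes. DBA minus C57 of the RCF difference in the NAc was 2.89 ± 2.19 for Slc17a7, 2.95 ± 1.97 for Slc30a3, −0.019 ± 0.66 for Slc17a6 and −0.31 ± 0.50 for Slc17a8, with adjusted p from limma between 0.759 and 0.997. In the mPFC the values were 0.60 ± 2.19, 0.48 ± 1.97, 0.13 ± 0.66 and 0.12 ± 0.50. In both regions 0.0% of all features were called for this difference, and 2317 features in the NAc and 441 in the mPFC had an unadjusted p below 0.05.

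**Figure D4:**
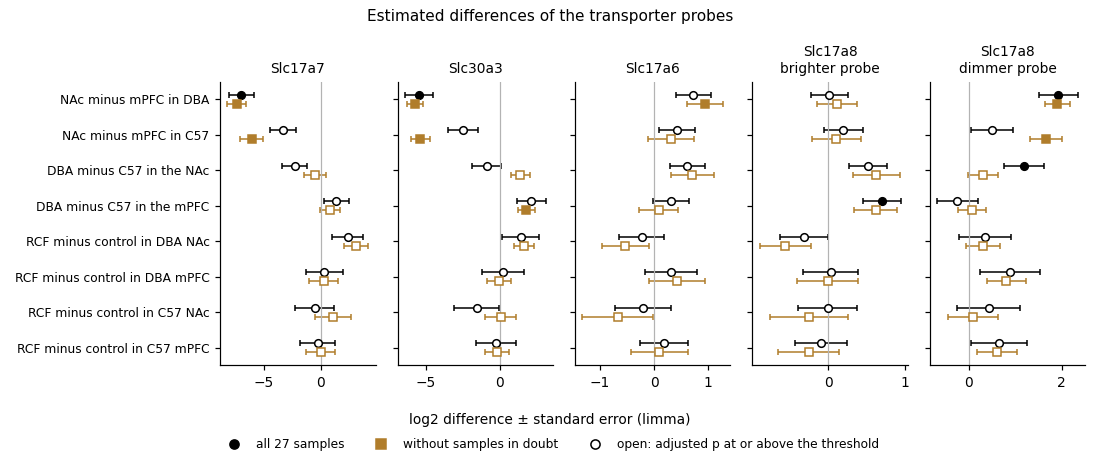
Differences of the 4 genes and the dimmer Slc17a8 probe in 8 comparisons, as log2 difference ± standard error from limma, with all 27 samples (circles) and without the 6 samples in doubt (squares); filled symbols have an adjusted p below 0.05. The panels have their own horizontal scales. Most filled symbols lie in the region comparisons of Slc17a7, Slc30a3 and the dimmer probe, Slc17a6 has 1, in DBA without the samples in doubt, 3 lie in strain comparisons, and none lies in an RCF comparison.

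Other genes of vesicle loading and of glutamate and zinc handling are given by counts, to be read against the 56.6% of all features called in DBA (11004 lower and 6057 higher in the NAc), the 9.57% in C57 and the 25.5% in C57 without the samples in doubt. For lists of this size, shares near these are no result about the list. Of 7 vesicular transporters and vesicle proteins of other transmitters tested, 3 rose and 2 fell in the DBA NAc. Slc32a1, the vesicular transporter of GABA, rose by 1.97 ± 0.31, Slc18a3 by 3.79 ± 0.73 and Sv2c, a vesicle glycoprotein of the basal ganglia, by 3.01 ± 0.65. Sv2b, its relative in forebrain excitatory neurons, fell by 2.84 ± 0.49 and Slc17a9, the vesicular ATP transporter, by 0.87 ± 0.21. In C57, 1 of 7 passed with all samples, Sv2a (0.73), and 5 passed without the samples in doubt, where Slc32a1 (1.45), Slc18a3 (3.65), Sv2c (3.41) and Sv2a (0.69) were higher and Sv2b (−2.72) lower in the NAc. Sv2a was named after its values were seen.

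Of the other SLC17 genes 3 of 6 were tested. Slc17a3, a phosphate and urate transporter of the kidney, was not well above background on any of the 8 DBA NAc arrays but was so on all 8 DBA mPFC arrays. It was at least 2.05-fold lower in the DBA NAc, taking the dimmest probes well above background as its floor there. The probe entered the test only through the DBA mPFC groups, where it is high, so its p-value is no support and is not given. In the DBA NAc Slc17a9 fell by 0.87 ± 0.21, while Slc17a5, the lysosomal sialic acid transporter, rose by 0.53 ± 0.19. None of the 3 passed in DBA with normexp background correction, and in C57 0 of 3 passed.

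Of the 25 other zinc transporters and metallothioneins tested, 13 were called, near the background share: 8 rose and 5 fell in the DBA NAc, with a median of 0.013, and 0 passed in C57. The importer genes Slc39a2, Slc39a4 and Slc39a10 fell by 1.20 ± 0.10, 0.72 ± 0.13 and 1.74 ± 0.26 in the DBA NAc, together with the exporter genes Slc30a2 (−0.90) and Slc30a4 (−0.64). In C57 without the samples in doubt Slc30a4 (−0.67) and Slc39a10 (−1.22) passed. Slc30a2 and Slc30a4 were named after their values were seen, and none of the 13 changes that passed was as large as that of Slc30a3.

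Of 19 genes that supply, take up and recycle glutamate, 11 were called, also near the background share: 6 rose and 5 fell in the DBA NAc, with a median of 0.054. Slc25a22, a mitochondrial glutamate carrier, fell by 0.93 ± 0.18, whereas Pcx, pyruvate carboxylase of astrocytes, rose by 0.61 ± 0.11. In C57, with all samples, Pcx rose by 0.47 ± 0.12, and Slc25a22 fell by 0.81 ± 0.19, as did 3 genes named after their values were seen, Got1 (−0.43), Got2 (−0.27) and Slc38a5 (−0.48). The vesicle proton pump acidifies the vesicle, and the AP-3 sorting adaptor sends ZnT3 to vesicles. Of 18 of their genes, 14 fell and 0 rose in the DBA NAc, with a median of −0.38 against −0.12 over all features, among them the pump subunits Atp6v1d (−0.34 ± 0.11) and Atp6v1g2 (−1.19 ± 0.17) and the adaptor subunit Ap3m2 (−0.64 ± 0.17). In C57, 2 fell (Atp6v1d and Clcn3) and 1 rose (Ap3b2) with all samples, and 13 fell without the samples in doubt. In the 4 RCF comparisons 0 of the genes in these 5 lists passed.

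**Figure D5:**
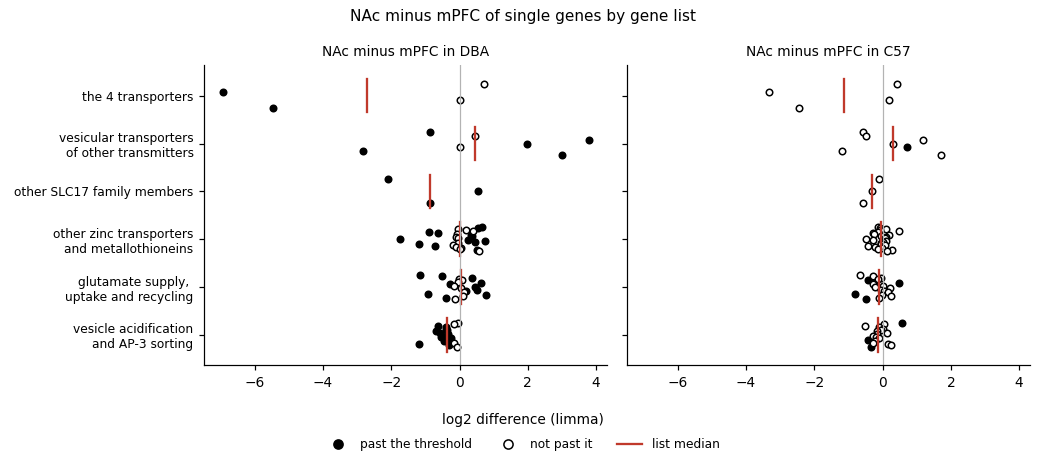
NAc minus mPFC of single genes in DBA (left) and C57 (right), as log2 differences from limma with all samples, for the 4 transporters and 5 lists of related genes. Slc17a9 is in 2 of the lists. Each point is a gene, filled where the adjusted p was below 0.05, and the red line is the list's median. Slc17a7 and Slc30a3 lie at −6.94 and −5.46 in DBA, beyond every gene of the other lists on that side.

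Markers of other cells are given beside the same 56.6% of all features called in DBA, and most counts are near that share. All 4 cholecystokinin and VIP interneuron markers fell in the DBA NAc, by 0.90 (Cnr1) to 4.06 (Cck), and in C57 Cck alone of the 4 (−2.37). Of 9 oligodendrocyte markers 5 rose and 1 fell in the DBA NAc, with a median of 1.03, and 0 passed in C57. Of 7 astrocyte markers 3 rose (Gja1, Gjb6 and Slc1a3, the last also in the glutamate list), with a median of 0.11, and 0 passed in C57. Of 5 septal and ventral forebrain markers 3 rose, led by Dlk1 (6.43), of 4 choroid plexus markers 2 rose (Clic6 and Kl) and 1 fell (Folr1), and of 6 thalamic markers 2 rose (Gbx2 and Prkcd) and 1 fell (Tcf7l2). In C57, 0, 0 and 1 of these passed (Rgs16). Gbx2 was well above background on 8 of 8 DBA NAc arrays, but on 1 of 8 DBA mPFC and 2 of 7 C57 mPFC arrays. Its probe entered the test only through NAc groups, where it is high, so its call is no support. In the RCF comparisons only Kcnj13, a choroid plexus marker, passed among all these markers, with 1.495 ± 0.34 in the C57 NAc (limma, adjusted p = 0.0398). The part of these cells in the transporter values was not tested.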

How the data were processed

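Total RNA from 31 tissue samples was hybridised to one-colour Agilent arrays. Per the file headers, the deposited intensity values were made with Feature Extraction 10.7.3.1, which subtracted the local background and corrected spatial trends within an array, with no scaling between arrays, and the probe annotation is that of mm9. The other columns used, also per the file headers, hold the deposited yes-or-no marks for spots above background, saturated or outlying. The authors' matrix holds log2 values of 30067 of the 55681 probes, in which every column has 1 and the same 75th percentile, and its further filter is not given in the sources used here. Limma is named in the submitters' processing notes without its role.

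Scanner files were assigned to samples by their best correlation with a column of the matrix. The lowest such r was 0.999994 and the highest r with any other column 0.998, and 29 of 31 files changed sample. The log2 processed signal was centred on the array's 75th percentile, probes above background on at least 3 arrays were kept, and each gene was read from its brightest probe. Near-identical arrays, whose difference was within 1.5 times the spread of repeated spots, were averaged. The spread of such pairs relative to repeated spots was 0.934 to 1.15, against 1.74 to 4.99 for all other pairs. Precision is limited by 2 to 4 samples a group, and the labels do not say that these are separate animals throughout, so p-values measure the spread between these samples.

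One mean per group was fitted to all 27 samples with limma 3.58.1 (R 4.3.3, intensity trend), p-values were adjusted by Benjamini-Hochberg over 30165 features, and 0.05 was the threshold. On simulated data for NAc minus mPFC in DBA, 98 of 100 features with a log2 change of 2 were called. These features were drawn at random, each with its own spread. The share is therefore not the power for Slc17a7 or Slc30a3, whose standard errors in this comparison are 1.06 and 0.95. Correlations and figures were made with Python 3.11.15. Alternatives were normexp background correction (offset 50, on median spot and background signals, since the scanner files hold no mean signal), quantile normalization, single arrays, a replicate block, the tissue score as covariate, other probe rules, the files as listed, and leaving out samples. The dimmer Slc17a8 probe was added after seeing the data.

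The genes, lists and samples in doubt were chosen with earlier results of these data known. Named were, from each list, the 3 genes with the smallest p for NAc minus mPFC over both strains, those past the threshold after RCF, and for each transporter the 3 genes most correlated with it. Others are said to be named after their values were seen, and a few genes that the rule names are not reported here.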

Additional observations from a re-analysis of the deposited data

Results flagged for a closer look

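Each of the 5 probes was tested in each group of 4 samples for a sample far from the others, which made 20 tests, and 3 flagged one. Chance alone flags about 1 in 20 independent tests. These tests reuse the same samples, so 3 of 20 cannot be set against that rate. Slc17a7 was low in C57 mPFC RCF 1, at −0.57 against 2.09 to 2.39 in the other 3 samples, a gap of 0.898 of the group's range. Slc17a7 was high in C57 NAc RCF 1, at 2.18 against −3.85 to −2.84 in the other 3 samples, a gap of 0.832 of the range. The dimmer Slc17a8 probe was low in the same C57 NAc RCF 1 sample, at −5.67 against −2.88 to −2.65, a gap of 0.925 of the range. The striatal minus cortical marker score was 5.22 in C57 mPFC RCF 1 and 0.088 in C57 NAc RCF 1, each on the other region's side of the midpoint of 3.19, and whether these samples hold the labelled tissue was not tested.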

How the results depend on the processing

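The 4 genes and the dimmer Slc17a8 probe gave 55 results, with 536 values under other settings, of which 442 kept their direction and their side of the threshold, and 594 of 675 did so as single samples were left out. Values below are log2 differences, and where no reason is given the cause was not tested. NAc minus mPFC of Slc17a7 in C57 passed with normexp (−2.74), with 31 separate arrays (−3.32), with the replicate block (−3.39) and without the samples in doubt (−6.05). NAc minus mPFC of Slc17a6 in DBA passed with the same settings (0.77, 0.74, 0.74 and 0.94). Without the samples in doubt, Slc30a3 also passed in C57 (−5.35), and signs turned for the strain difference of the dimmer probe in the mPFC (0.071) and of Slc30a3 in the NAc (1.41), for RCF in the C57 NAc (Slc17a7 1.08, Slc30a3 0.079) and DBA mPFC (Slc17a8 −0.010, Slc30a3 −0.065), for strain by treatment in the NAc (Slc17a6 0.14, dimmer probe 0.22) and for strain by region of Slc17a8 (0.012). Normexp turned the dimmer probe for RCF in the C57 NAc (−0.0034) and strain by treatment in the NAc (0.17), quantile normalization turned Slc17a6 for strain by treatment in the NAc (0.0037), and the matrix values turned Slc17a8 for RCF in the C57 NAc (0.019). The mean of both Slc17a8 probes passed for NAc minus mPFC in DBA (0.97) and turned RCF in the C57 mPFC (0.28), C57 NAc (0.21) and DBA NAc (0.017) and strain by region (0.63). The tissue score as covariate turned RCF in the C57 NAc (Slc17a7 0.90, Slc17a8 0.10, dimmer probe −0.11) and DBA mPFC (Slc17a7 −0.25, Slc17a8 −0.015, Slc30a3 −0.36), and strain by treatment in the mPFC (Slc17a7 −0.065, Slc30a3 −0.20) and NAc (dimmer probe 0.65).

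With the scanner files as listed, NAc minus mPFC turned in C57 (Slc17a7 0.35, Slc17a8 −0.046, Slc30a3 0.28, dimmer probe −0.064) and in DBA (Slc17a6 −0.41, Slc17a7 0.20, Slc17a8 −0.26), and Slc30a3 lost its call there (−0.60). The strain difference turned in the mPFC (Slc17a7 −5.04, Slc30a3 −3.51, dimmer probe 0.94) and NAc (Slc17a8 −0.0038). RCF turned in the C57 mPFC (Slc17a7 1.71, Slc17a8 0.51, Slc30a3 2.26, dimmer probe −0.16), C57 NAc (Slc17a6 0.33, Slc17a7 1.18, Slc17a8 0.85 and called, Slc30a3 2.20, dimmer probe −0.38), DBA mPFC (Slc17a7 −3.42, Slc30a3 −2.05) and DBA NAc (Slc17a6 0.71, Slc17a7 −1.10, Slc17a8 0.33). Strain by treatment turned in the mPFC (Slc17a7 −5.14, Slc30a3 −4.31) and NAc (Slc17a6 0.38, Slc17a7 −2.28, Slc30a3 −1.86, dimmer probe 1.30), and strain by region for Slc17a6 (−0.51).

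As single samples were left out, the results that turned or changed their call ranged as follows, with differences of the strains and of strain by region first. DBA minus C57 ran in the NAc from −3.73 to −0.79 for Slc17a7, 0.32 to 0.67 for Slc17a8 and 0.66 to 1.72 for the dimmer probe, and in the mPFC from 0.60 to 0.76 for Slc17a8. Strain by region ran from −5.10 to −2.15 for Slc17a7, −4.60 to −1.42 for Slc30a3 and 0.90 to 1.97 for the dimmer probe. NAc minus mPFC ran in C57 from −4.79 to −1.85 for Slc17a7, −4.04 to −0.86 for Slc30a3 and −0.037 to 1.02 for the dimmer probe, and in DBA from 0.50 to 0.88 for Slc17a6 and −0.17 to 0.17 for Slc17a8. The strain difference of Slc30a3 in the NAc ran from −2.45 to 0.74. RCF in the C57 mPFC ran from −0.070 to 0.37 (Slc17a6), −0.72 to 0.45 (Slc17a7), −0.27 to 0.034 (Slc17a8) and −0.71 to 0.31 (Slc30a3), and in the C57 NAc from −0.50 to 0.089, −3.46 to 2.43, −0.14 to 0.12 and −4.71 to 1.66 for the same genes, with −0.64 to 1.49 for the dimmer probe. In the DBA mPFC it ran from −0.038 to 0.086 (Slc17a8) and −0.065 to 0.47 (Slc30a3), and in the DBA NAc from −0.68 to 0.16 (Slc17a6). Strain by treatment ran in the mPFC from −0.067 to 0.39 (Slc17a6), −0.12 to 1.05 (Slc17a7), −0.0045 to 0.30 (Slc17a8), −0.069 to 0.96 (Slc30a3) and −0.057 to 0.54 (dimmer probe), and in the NAc from −0.47 to 0.36, −0.057 to 5.84, −0.68 to 0.00012, −0.24 to 6.13 and −1.14 to 0.99 in the same order.

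After group means were subtracted, same-numbered NAc and mPFC samples correlated at −0.64 (C57 RCF 1) to 0.42. Both samples of that lowest pair are in doubt, so these values cannot tell whether replicate numbers pair animals. The block on 31 arrays called 2 results beyond those above and otherwise changed no call. They were DBA minus C57 of Slc17a8 in the NAc (0.51) and strain by region of the dimmer probe (1.46). With 31 separate arrays and no block these 2 (0.51 and 1.41) and strain by region of Slc17a7 (−3.64) were called. Apart from the files as listed and from leaving out single samples, the features called ran from 1503 (normexp) to 7691 (without the samples in doubt) of 30165 against 2887 for NAc minus mPFC in C57, from 0 (only the groups compared) to 1190 (31 arrays) against 183 for RCF in the C57 NAc, from 5634 to 13845 against 9588 for the strains in the NAc, from 4116 to 11818 against 9435 for strain by region and from 9496 to 15898 against 14488 for the strains in the mPFC. Without C57 NAc control 2 and 4 alone, 1232 were called for NAc minus mPFC in C57 and 1332 for RCF in the C57 NAc, and without C57 NAc RCF 4 alone 0 for RCF there. Normexp moved the median of all features from 0.072 to −0.118 for the strains in the mPFC and from −0.12 to 0.0027 for NAc minus mPFC in DBA, so that Slc17a8 of the strains in the mPFC stands 0.62 and 0.56 above it. Low Slc30a3 signals in the NAc lie near background, as do those of Slc17a7 on 2 of 4 DBA NAc control arrays, so the size of these differences is uncertain. Relative to the median of all features, normexp took NAc minus mPFC in DBA from −6.82 to −5.39 for Slc17a7. For Slc30a3 it went from −5.34 to −3.70.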
